A study of Mus musculus with 14 samples.

Results

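Synaptic vesicle and release genes encode the proteins that fill, dock, fuse and recover the transmitter vesicles of nerve terminals. A list of 34 such genes was followed, chosen by gene symbol, of 55450 genes listed for the hippocampus, and each of the 34 was abundant enough to be tested among 18059 genes. The list held 10 vesicle membrane proteins, 6 SNARE proteins and complexins, 5 synaptotagmins, 6 active zone and priming proteins, 2 vesicular glutamate transporters, 3 endocytosis proteins and 2 neurexins. The group named vesicle membrane proteins also takes in proteins that do not span the membrane, namely the synapsins, Rab3a and the soluble Sncb. RNA-Seq of poly(A) RNA was performed on the hippocampus of female C57BL/6J mice aged 10 weeks, 14 libraries in all. The 3 WT mice carried no mutation, and the knockouts were of 3 kinds: Δ3102 (3 mice), AG-KO (4 mice) and NG-KO (4 mice). Δ3102 was a global knockout of GPR30 (Gper1, a G protein-coupled estrogen receptor) made with CRISPR/Cas9. AG-KO mice (GPR30 fl/fl;GFAP-Cre) lacked the receptor in astrocytes, through Cre driven by the mouse GFAP promoter, which is also active in neural stem cells. NG-KO mice (GPR30 fl/fl;NSE-Cre) lacked it in neurons, through the promoter of neuron-specific enolase. No group with the floxed allele alone or with Cre alone was analyzed here, so the conditional alleles and the transgenes cannot be told apart from the loss of GPR30. Replicates were numbered without naming the animal, so libraries are called mice here and p values measure only the spread between these samples, which may be technical. The comparisons asked how the release machinery differed from WT when GPR30 was lost everywhere, in astrocytes or in neurons, and between the 2 cell-specific knockouts.

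A synaptic vesicle is loaded with glutamate by a vesicular transporter, tethered at the active zone by scaffold proteins such as Bassoon and RIM, and primed by Munc13. Its fusion is driven by the SNARE complex of synaptobrevin, syntaxin and SNAP-25, clamped and assisted by complexin and triggered by calcium bound to synaptotagmin. The membrane is then retrieved with dynamin, amphiphysin and synaptojanin. In the hippocampus the glutamatergic principal cells rely on VGLUT1 (Slc17a7), whereas VGLUT2 (Slc17a6), synaptotagmin 2 and synaptobrevin 1 are better known from the thalamus, brainstem and interneurons.

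Between 44527024 and 62669865 read counts were assigned to genes in each library, and none of the 91 pairs of libraries held the same counts. Gper1 was at 0.797 to 3.04 FPKM in WT, 0.0124 to 0.145 FPKM in Δ3102, 0.540 to 1.38 FPKM in AG-KO and 0.975 to 1.41 FPKM in NG-KO, where FPKM is the fragment count scaled to exon length and library size. Markers of hippocampal principal cells summed to 490.1 to 657.9 FPKM per library, against 39.7 to 59.4 FPKM for neocortex markers and at most 0.410 FPKM for brainstem markers. Most of the principal cell sum was Camk2a (348 to 475 FPKM), which excitatory neurons of the neocortex also express. The contrast with neocortex markers therefore cannot show how much neocortex a library held. Several libraries also held transcripts of tissues other than the hippocampus. Albumin was at 126 to 167 FPKM in WT, 1.11 to 189 FPKM in Δ3102, at most 44.8 FPKM in AG-KO and 2.00 to 55.8 FPKM in NG-KO. Transthyretin of the choroid plexus reached 1405 FPKM in Δ3102 replicate 1. Protamine 2 (Prm2) of the testis reached 41.3, 37.8, 12.3 and 27.4 FPKM in WT, Δ3102, AG-KO and NG-KO, although the mice were female. Muscle actin (Acta1) was at 7.71 to 143 FPKM in WT, 112 to 178 FPKM in Δ3102, 3.42 to 64.8 FPKM in AG-KO and 4.38 to 60.8 FPKM in NG-KO. In albumin every WT library lay above every AG-KO and NG-KO library, so leaving out single libraries cannot separate it from those genotypes. The part of these transcripts in the results below was not tested. In bulk tissue, fewer cells of a type and less RNA per cell cannot be told apart.

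The release machinery was among the most abundant RNA of the WT hippocampus. The median member was at 49.9 FPKM in WT, against 3.65 FPKM for all tested genes, and 13 of the 34 members were at 100 FPKM or more, a level that 2.14% of tested genes reached. Synaptophysin (Syp), the main glycoprotein of the vesicle membrane, led with 322 ± 21.3 FPKM (SD, n = 3). It was followed by complexin 1 (Cplx1, 291 ± 21.1 FPKM), synaptobrevin 2 (Vamp2, 289 ± 13.8 FPKM), complexin 2 (Cplx2, 256 ± 19.5 FPKM) and Snap25 (252 ± 11.7 FPKM). Another 13 members lay between 10 and 100 FPKM, and 8 lay below 10 FPKM. The lowest were Unc13b (1.78 ± 0.147 FPKM), a priming factor, and synapsin 3 (Syn3, 0.474 ± 0.0498 FPKM). In this order, 18 of the 33 neighbouring pairs were closer than the larger of their SDs, among them Cplx1 and Vamp2, Dnm1 and Rab3a, and Slc17a6 and Sv2c.

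**Figure D1:**
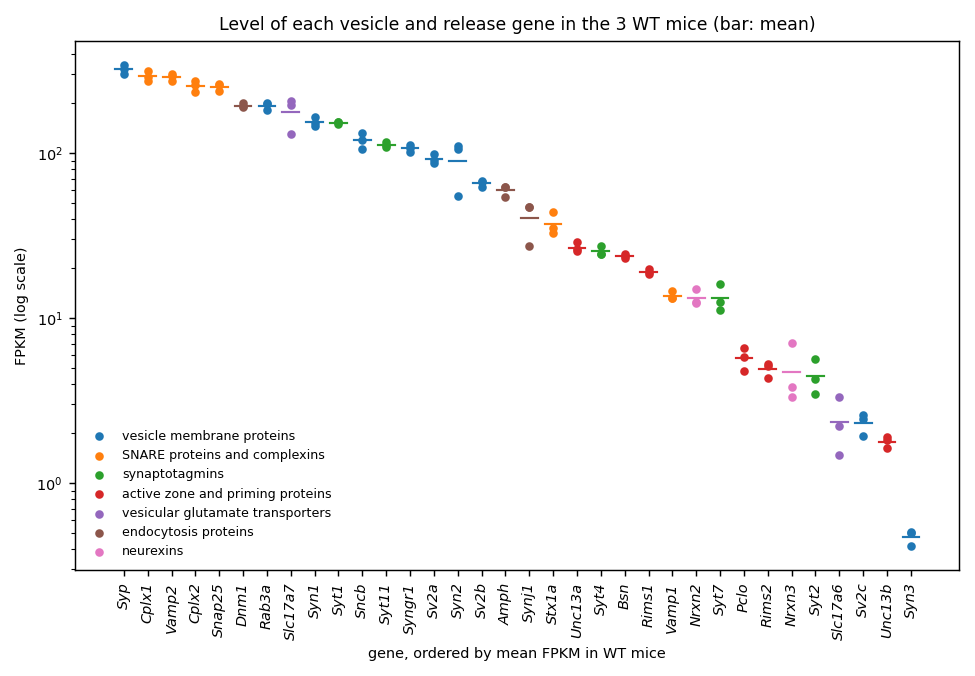
FPKM (log axis) of the 34 members in the 3 WT mice, ordered by mean; points are mice, bars are means and colors are roles. Levels span from 322 FPKM for Syp to 0.474 FPKM for Syn3, and Syn2, Synj1 and Slc17a7 each have 1 WT mouse far below the others.

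Members varied less between mice of a genotype than all tested genes did, by the median. The median SD within genotypes was 0.14 on the log2 CPM scale, where CPM is the count scaled to library size, against 0.29 for all tested genes. Synapsin 1 (Syn1, 0.07), dynamin 1 (Dnm1, 0.07) and synaptotagmin 11 (Syt11, 0.07) varied least on this scale. An SD above 0.3 was seen for 6 members, Syt7 (0.33), Nrxn3 (0.40), Synj1 (0.47), Syn2 (0.55), Slc17a6 (0.60) and Syt2 (0.66), and for 49.1% of all tested genes. The median member was also far more abundant than the median tested gene. Genes of like abundance were not compared, so the smaller spread cannot be called particular to the members. The summed level of the 34 members was 17630 to 18130 CPM in WT, 19170 to 19460 CPM in Δ3102, 18630 to 20120 CPM in AG-KO and 19490 to 20580 CPM in NG-KO. The WT libraries lay below every library of the 3 knockouts in this sum. Markers of neurons in general (8 genes) summed to 495 to 525 FPKM in WT and 507 to 582 FPKM in Δ3102. They summed to 539 to 609 FPKM in AG-KO and 533 to 553 FPKM in NG-KO, both wholly above WT. The single markers did not move together. At an unadjusted p under 0.05, 1 of the 8 (Tubb3) was higher in AG-KO and 0 in NG-KO. Log2 fold changes were negative for 2 of the 8 in AG-KO and 3 in NG-KO. Rbfox3 was among these in both (-0.17 and -0.15). Sums of principal cell markers, most of them Camk2a, overlapped WT in each knockout. The part of neuron content in the members' sum was not tested.

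**Figure D2:**
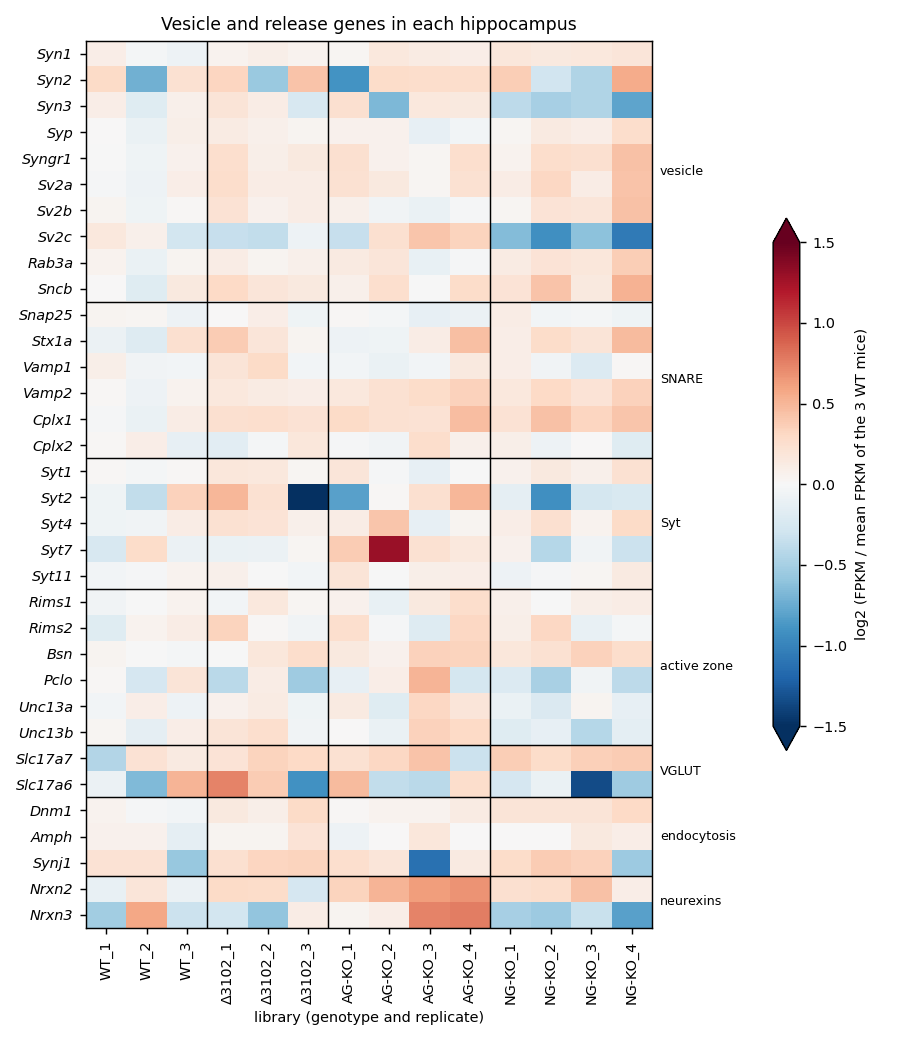
Log2 ratio of each member's FPKM to its WT mean in the 14 libraries, with members grouped by role; red is above and blue below the WT mean. Cplx1 and Vamp2 are red in each of the 11 knockout libraries, Sv2c is blue in the 4 NG-KO libraries, and Syn2 and Synj1 have blue libraries in several genotypes.

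In Δ3102 against WT, no member passed an adjusted p of 0.05 in edgeR, and 0.0111% of all tested genes did. At an unadjusted p under 0.05, 2 members were higher and 0 lower, against 2.18% higher and 2.27% lower of all tested genes. Those 2 were Cplx1 and Dnm1. The median log2 fold change of the members was 0.12, against -0.004 for all tested genes, and 29 of 34 members were above 0. DESeq2 called 0 members and 0.161% of tested genes. All 4 oligodendrocyte markers (Mbp, Mog, Mag and Cnp) had negative values in this comparison, 1 of them at an unadjusted p under 0.05, their sum being 137 to 171 FPKM in Δ3102 and 150.5 to 313 FPKM in WT. With that sum as a covariate, chosen after the data were seen, the log2 fold change of Cplx1 was 0.20 (unadjusted p = 0.0503) and that of Dnm1 0.18 (unadjusted p = 0.0327).

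In AG-KO against WT, 0 members passed the adjusted p in edgeR, against 0.0221% of tested genes. At an unadjusted p under 0.05, 7 members were higher and 0 lower, where the background was 6.65% higher and 7.74% lower. They were Cplx1, Vamp2, Nrxn2, Bsn, Syt7, Sv2a and Syn1, and the count fell to 4 without WT replicate 3. The median log2 fold change was 0.13, against -0.01 for all tested genes, with 32 of 34 members above 0. DESeq2 called 3 members, Cplx1 (adjusted p = 0.0111), Vamp2 (0.0147) and Nrxn2 (0.0164), and 2.26% of tested genes. Among interneuron markers, 3 of 7 were higher at an unadjusted p under 0.05 (Gad1, Gad2 and Npy), and their sum was 452 to 601.7 FPKM in AG-KO and 477 to 508 FPKM in WT. Of 5 astrocyte markers 2 were higher at that p (Aqp4 and Aldh1l1), with a sum of 177 to 204 FPKM in AG-KO and 178 to 196 FPKM in WT. All 7 neocortex markers had positive values, none at that p, with a median log2 fold change of 0.28. The part of these cells in the members' values was not tested.

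In NG-KO against WT, 0 members passed the adjusted p in edgeR, against 0.072% of tested genes. At an unadjusted p under 0.05, 13 members were higher and 2 lower, against 4.33% higher and 4.83% lower of tested genes. The 13 were Cplx1, Vamp2, Dnm1, Rab3a, Sncb, Syngr1, Sv2a, Sv2b, Syn1, Bsn, Syp, Slc17a7 and Syt1, and the 2 were Sv2c and Syn3. Of these 2, Syn3 passed the filter only through libraries of other genotypes. The median log2 fold change over all 34 members was 0.13, against -0.02 for all tested genes, with 23 above 0 and 11 below. DESeq2 called Cplx1 (adjusted p = 0.0077), Sv2c (0.0332) and Vamp2 (0.0489), and 0.914% of tested genes.

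Markers of myelinating cells moved with the NG-KO result. All 4 oligodendrocyte markers were lower at an unadjusted p under 0.05, with a median log2 fold change of -0.72, and their sum was 105 to 153 FPKM in NG-KO, 150.5 to 313 FPKM in WT and 148 to 273 FPKM in AG-KO. All 5 astrocyte markers were negative too, 3 of them at an unadjusted p under 0.05. With the oligodendrocyte sum as a covariate, 7 members instead of 15 had an unadjusted p under 0.05 and the median log2 fold change of the members was 0.14. Sncb went from 0.34 to 0.15 and Rab3a from 0.23 to 0.12, whereas Dnm1 went from 0.23 to 0.24 and Syn1 from 0.18 to 0.19. The covariate was itself low in NG-KO, where only replicate 3 overlapped WT, so it and the genotype cannot be told apart fully.

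**Figure D3:**
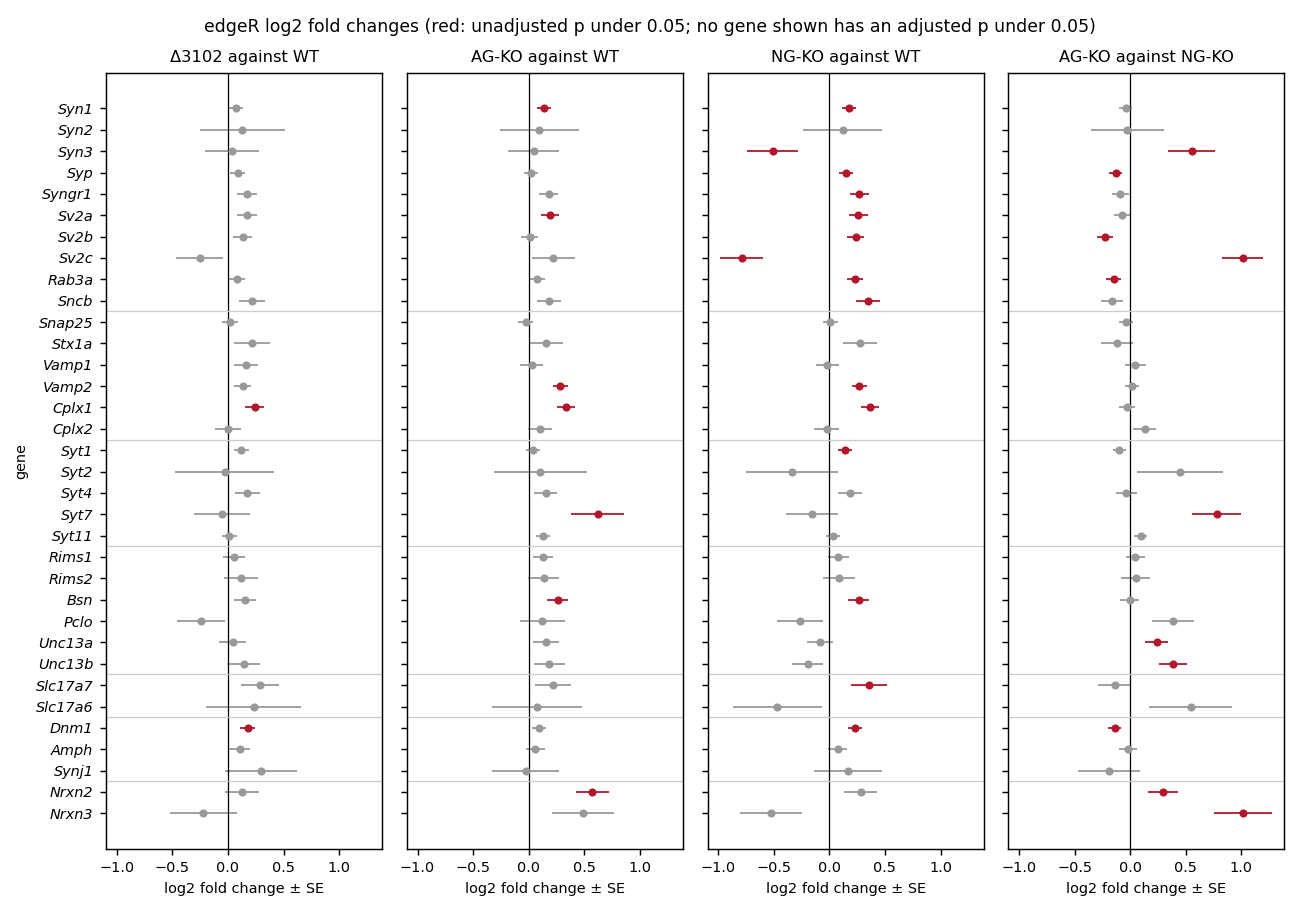
edgeR log2 fold change ± SE of the 34 members in 4 comparisons, with red marking an unadjusted p under 0.05 and gray lines separating the roles. Most values against WT lie a little above 0, Sv2c and Syn3 lie below 0 in NG-KO, and Sv2c and Nrxn3 reach 1.01 in AG-KO against NG-KO.

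The comparison of the 2 cell-specific knockouts used no WT library. In AG-KO against NG-KO, 0 members passed the adjusted p in edgeR, against 0.111% of tested genes. At an unadjusted p under 0.05, 7 members were higher in AG-KO and 4 lower, against 7.3% higher and 6.84% lower of tested genes. The higher were Sv2c, Nrxn3, Syt7, Unc13b, Unc13a, Nrxn2 and Syn3, the last of which passed the filter without any NG-KO library. The lower members were Sv2b, Dnm1, Syp and Rab3a. The median was -0.01, against -0.009 for all tested genes, and 16 members were above 0. DESeq2 called Sv2c (adjusted p = 0.000155), Nrxn3 (0.00876) and Syt7 (0.0235), and 2.38% of tested genes. The count of 11 fell to 5 without NG-KO replicate 4, to 6 without AG-KO replicate 3, to 7 without AG-KO replicate 4 or NG-KO replicate 2, and to 2 with the oligodendrocyte covariate. All 4 oligodendrocyte markers were higher in AG-KO than in NG-KO at an unadjusted p under 0.05, with a median log2 difference of 0.74. In their sum only AG-KO replicate 2 and NG-KO replicate 3 overlapped, so the covariate and the genotype cannot be told apart fully here. Higher too at that p were 3 of 5 astrocyte markers (median of the list 0.29), 2 of 3 endothelial markers (0.42) and 2 of 7 interneuron markers (0.07). So were 2 of 8 tested thalamus and habenula markers (0.17), which were Zic1 and Lef1. Of these, Lef1 passed the filter without any NG-KO library. The part of these cells and tissues in the members' values was not tested.

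Across the 3 knockouts, 2 members, Cplx1 and Vamp2, were higher in FPKM in all 11 GPR30-deficient mice than in all 3 WT mice. That is 5.88% of members, against 0.609% of tested genes, and 0 members were below in the same way, against 0.764%. In CPM, Syngr1 and Sv2a met this as well. The 3 knockouts share the same WT mice, so a low WT value enters each comparison.

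Among SNARE proteins and complexins, the complexin that binds the assembled SNARE complex stood highest. Cplx1 (ENSMUSG00000033615, GRCm38 chromosome 5, 108518554 to 108550024, minus strand) was at 287, 273 and 314 FPKM in WT, 344, 347 and 339 FPKM in Δ3102, 356, 340.1, 339 and 402 FPKM in AG-KO, and 338, 394, 364 and 390.1 FPKM in NG-KO. No knockout library overlapped WT. The level was 1.18-fold WT in Δ3102 (log2 fold change 0.24 ± 0.08, SE, adjusted p = 1.0), 1.26-fold in AG-KO (0.33 ± 0.08, adjusted p = 0.133) and 1.29-fold in NG-KO (0.36 ± 0.08, adjusted p = 0.196). Unadjusted p was 0.014, 0.00105 and 0.000538, respectively, and the Δ3102 value had an unadjusted p of 0.0595 without WT replicate 2. AG-KO and NG-KO differed by -0.03 ± 0.07 on the log2 scale.

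Vamp2 (ENSMUSG00000020894, chromosome 11, 69088490 to 69092384, plus strand), the vesicle SNARE of most forebrain terminals, was at 294, 274 and 300.2 FPKM in WT and at 322, 316 and 309 FPKM in Δ3102. AG-KO held 322, 340.1, 349.9 and 366 FPKM, and NG-KO 323, 356, 335 and 367 FPKM. The knockout mice again lay above WT, by 0.13 ± 0.07 in Δ3102 (unadjusted p = 0.0983), 0.29 ± 0.07 in AG-KO (adjusted p = 0.138) and 0.27 ± 0.07 in NG-KO (adjusted p = 0.27) as log2 fold changes. The exact two-sided permutation test of FPKM gave p = 0.0571 for Cplx1 and for Vamp2 in AG-KO and in NG-KO, and p = 0.1 in Δ3102. These are the smallest values it allows for 4 against 3 and for 3 against 3 mice, so the test could not reach 0.05.

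**Figure D4:**
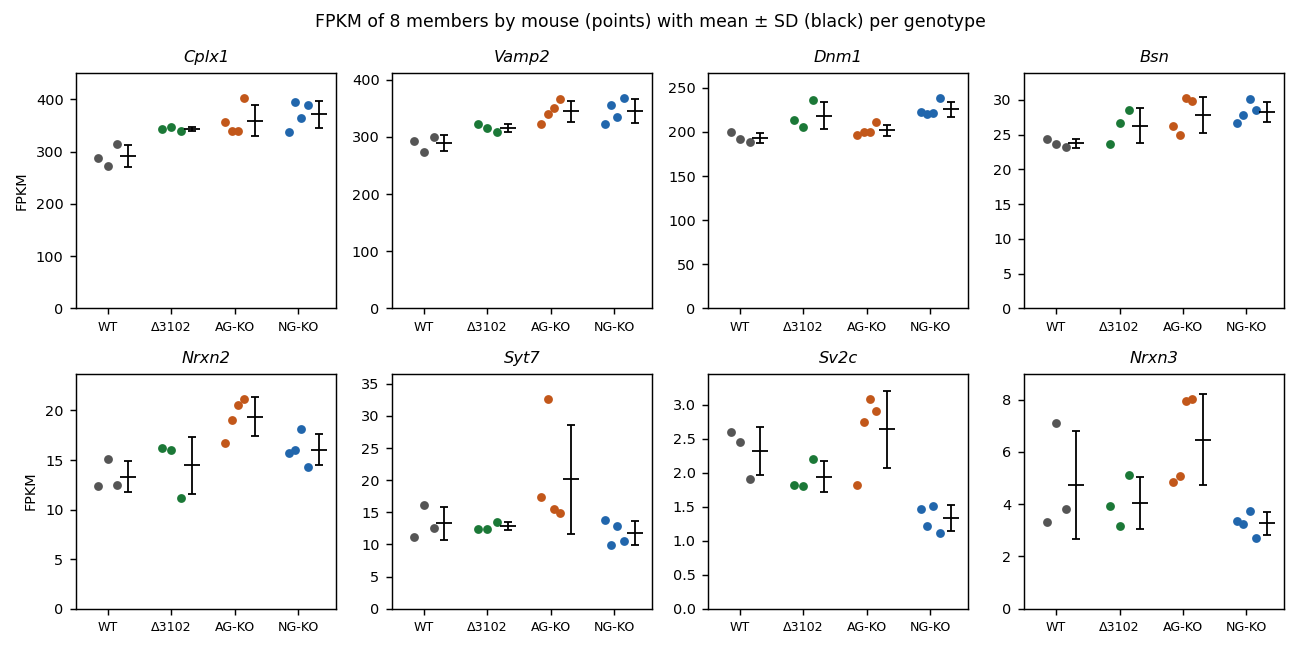
FPKM (linear axes from 0) of 8 members by mouse, with mean ± SD in black for each genotype (4 AG-KO, 4 NG-KO, 3 Δ3102 and 3 WT mice). Cplx1 and Vamp2 lie above WT in each knockout mouse, Nrxn2 is highest in AG-KO, Syt7 has 1 AG-KO mouse at 32.7 FPKM, and Sv2c is lowest in NG-KO.

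Other proteins of the same complex were at or near the WT level, or varied more. Snap25, the plasma membrane SNARE with 2 helices, was at 252, 255, 243 and 252 FPKM on average in WT, Δ3102, AG-KO and NG-KO, and its log2 fold changes against WT were 0.02 ± 0.07, -0.03 ± 0.07 and 0.01 ± 0.07. Cplx2, the second complexin of the forebrain, was at 0.00 ± 0.12, 0.10 ± 0.11 and -0.03 ± 0.11 against WT. The FPKM ratio of Cplx1 to Cplx2 was 0.993 to 1.33 in WT, 1.18 to 1.50 in Δ3102, 1.10 to 1.49 in AG-KO and 1.24 to 1.73 in NG-KO. These ranges overlapped. Syntaxin 1A (Stx1a) was at 32.7 to 44.0 FPKM in WT and at 35.2 to 51.7 FPKM in the knockouts, with log2 fold changes of 0.22, 0.16 and 0.28 and SEs of 0.15 to 0.16.

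GPR30 can raise cAMP, and the factor CREB binds the cAMP response element TGACGTCA, so promoters were searched for these letters on both strands. RefSeq promoters (GRCm38.p6, 250 bases before to 50 after a start) were at hand for 27 of the 34 members, 38 windows in all. The full element stood in 1 member window, that of Syn1, and in 1.79% of 32851 windows of all genes. The shorter letters TGACG, which the full element contains, stood in 9 member windows (23.7%), that of Cplx1 among them, and in 20.8% of all windows. The Syn1 window is shown because it alone held the full element, and the Cplx1 window because Cplx1 had the smallest unadjusted p of the members against WT in each knockout; capitals mark the matches.
Syn1, chrX:20920869-20921168, minus strand: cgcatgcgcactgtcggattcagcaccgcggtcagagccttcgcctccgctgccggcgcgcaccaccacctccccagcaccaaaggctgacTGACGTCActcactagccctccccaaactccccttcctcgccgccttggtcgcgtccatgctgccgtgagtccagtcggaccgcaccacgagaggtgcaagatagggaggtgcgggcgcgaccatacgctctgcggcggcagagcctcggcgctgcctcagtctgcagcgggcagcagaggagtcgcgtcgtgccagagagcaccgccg
Cplx1, chr5:108549978-108550277, minus strand: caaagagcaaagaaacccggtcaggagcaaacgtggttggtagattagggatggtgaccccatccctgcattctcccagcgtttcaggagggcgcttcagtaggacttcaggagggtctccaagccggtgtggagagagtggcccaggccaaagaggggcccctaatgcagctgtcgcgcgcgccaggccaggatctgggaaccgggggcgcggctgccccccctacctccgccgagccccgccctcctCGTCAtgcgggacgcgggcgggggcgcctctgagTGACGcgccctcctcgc
The Syn1 match began 159 bases before the start. Those of Cplx1 began 1 base before it, on the opposite strand, and 33 bases after it. GC content was 68.3% in the Syn1 window and 67.0% in the Cplx1 window.

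Vesicle membrane proteins were the group with the most members at an unadjusted p under 0.05 in NG-KO, 7 higher and 2 lower of 10, with a median log2 fold change of 0.20, against 4.33% higher and 4.83% lower of all tested genes. The 2 lower were Sv2c and Syn3, and Syn3 passed the filter only through libraries of other genotypes. With the oligodendrocyte covariate Rab3a, Sncb, Syngr1, Sv2a and Sv2b no longer had an unadjusted p under 0.05 (0.0545 to 0.215). In Δ3102 the count was 0 of 10 and in AG-KO 2 of 10, with medians of 0.11 and 0.12. Syn1, which ties vesicles to the reserve pool, was at 147 to 165 FPKM in WT, 160.1 to 165 FPKM in Δ3102, 158 to 173 FPKM in AG-KO and 171 to 176 FPKM in NG-KO. Only the NG-KO mice lay wholly above WT, by 0.18 ± 0.06 (unadjusted p = 0.0143, and 0.0789 without WT replicate 3). The AG-KO value of 0.14 ± 0.06 had an unadjusted p of 0.0487, or 0.211 without WT replicate 3.

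Beta-synuclein (Sncb), a soluble terminal protein of the synuclein family, had the largest positive log2 fold change of this group in NG-KO, 0.34 ± 0.11 (adjusted p = 0.35). It was at 105 to 132 FPKM in WT and at 132 to 171 FPKM in NG-KO, so NG-KO replicate 3, the lowest, overlapped the highest WT mouse. Sv2a, a vesicle glycoprotein bound by the antiepileptic levetiracetam, was at 87.1 to 98.5 FPKM in WT, 99.7 to 111 FPKM in Δ3102, 94.3 to 108 FPKM in AG-KO and 99.4 to 124 FPKM in NG-KO. Its log2 fold changes were 0.17 ± 0.09, 0.19 ± 0.08 and 0.26 ± 0.08. Sv2b was 0.23 ± 0.08 higher in NG-KO (adjusted p = 0.393), and synaptogyrin 1 (Syngr1) 0.27 ± 0.09 (adjusted p = 0.355). The small GTPase Rab3a, which marks vesicles for docking, was at 181 to 201 FPKM in WT and 210.3 to 249.5 FPKM in NG-KO, a log2 fold change of 0.23 ± 0.07 (adjusted p = 0.35). Syp was at 300.0 to 342 FPKM in WT and 329 to 388 FPKM in NG-KO, with 0.15 ± 0.06 and overlapping groups.

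The third SV2 protein had the opposite sign in NG-KO. Sv2c (ENSMUSG00000051111, chromosome 13, 95954594 to 96132577, minus strand), which is better known from the striatum and midbrain, was at 2.59, 2.45 and 1.92 FPKM in WT and at 1.82, 1.80 and 2.21 FPKM in Δ3102. It was at 1.82, 2.75, 3.09 and 2.91 FPKM in AG-KO and at 1.47, 1.22, 1.51 and 1.11 FPKM in NG-KO. The 4 NG-KO mice lay below every other library. Sv2c was 0.579-fold WT in NG-KO (log2 fold change -0.79 ± 0.19, adjusted p = 0.256) and 2.02-fold higher in AG-KO than in NG-KO (1.01 ± 0.18, adjusted p = 0.0591), the smallest adjusted p of any member in edgeR. Leaving out AG-KO replicate 1 gave an adjusted p of 0.0101, and leaving out AG-KO replicate 2 gave 0.0371. The exact two-sided permutation test of FPKM gave p = 0.0286, the smallest possible for 4 against 4. With the oligodendrocyte covariate the 2 log2 fold changes were -0.64 and 0.84.

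Striatal markers summed to 41.8 to 44.3 FPKM in AG-KO and 38.3 to 46.4 FPKM in NG-KO, and 2 of 8, Drd2 and Adora2a, were higher in AG-KO at an unadjusted p under 0.05. Their part in the Sv2c values was not tested. Syn3, a synapsin of immature neurons, was at 0.417 to 0.506 FPKM in WT and 0.274 to 0.360 FPKM in NG-KO without overlap (-0.51 ± 0.23, adjusted p = 0.52). These are low levels, and AG-KO replicate 2 stood at 0.296 FPKM beside 0.526 to 0.561 FPKM in the other AG-KO mice. No NG-KO library reached 0.5 FPKM, so Syn3 passed the filter only through WT, Δ3102 and AG-KO libraries. Its lower value in NG-KO is therefore given as a description only.

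Synaptotagmins, the calcium sensors of release, held 0, 1 and 1 members of 5 at an unadjusted p under 0.05 in Δ3102, AG-KO and NG-KO, all of them higher, against 2.18%, 6.65% and 4.33% higher of all tested genes, and 1 of 5 is too few to describe the group. Synaptotagmin 1 (Syt1), the sensor of fast release in the forebrain, was at 149 to 155 FPKM in WT and 159 to 179 FPKM in NG-KO without overlap, a log2 fold change of 0.14 ± 0.06 (adjusted p = 0.538). Syt7, the sensor of asynchronous release and facilitation, was at 11.2, 16.1 and 12.5 FPKM in WT, at 12.4, 12.5 and 13.5 FPKM in Δ3102 and at 17.4, 32.7, 15.6 and 14.8 FPKM in AG-KO. NG-KO held 13.9, 9.88, 12.8 and 10.6 FPKM. AG-KO replicate 2 was far above the other 13 libraries. The log2 fold change of Syt7 in AG-KO against WT was 0.62 ± 0.24 (adjusted p = 0.271), and without replicate 2 it was 0.30 with an unadjusted p of 0.0671. Against NG-KO it was 0.78 ± 0.22 (adjusted p = 0.168), or 0.46 without that mouse, and each AG-KO mouse lay above each NG-KO mouse. Syt4 and Syt11, which do not act as fast calcium sensors, had log2 fold changes against WT of 0.15 to 0.19 and 0.01 to 0.13.

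Active zone and priming proteins held 0 members of 6 at an unadjusted p under 0.05 in Δ3102 and 1 each in AG-KO and NG-KO, which was Bassoon (Bsn) in both and is too few to describe the group beside the same shares of all tested genes. Bsn, a giant scaffold of the active zone, was at 24.4, 23.6 and 23.2 FPKM in WT, 23.7, 26.6 and 28.6 FPKM in Δ3102, 26.3, 24.9, 30.2 and 29.9 FPKM in AG-KO and 26.7, 27.9, 30.1 and 28.5 FPKM in NG-KO. Its AG-KO and NG-KO mice lay above WT, with log2 fold changes of 0.26 ± 0.09 in each (adjusted p = 0.243 and 0.407), whereas Δ3102 replicate 1 overlapped WT. Without WT replicate 3, the unadjusted p in AG-KO was 0.0531. Piccolo (Pclo), the related scaffold, had log2 fold changes of -0.24 ± 0.22, 0.12 ± 0.20 and -0.27 ± 0.20. RIM1 (Rims1) and RIM2 (Rims2), which link vesicles to calcium channels, were between 0.05 and 0.14 in each comparison against WT.

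The Munc13 genes that prime vesicles, Unc13a and Unc13b, had unadjusted p values under 0.05 between the 2 cell-specific knockouts. Unc13b was at 1.66 to 2.28 FPKM in AG-KO and 1.33 to 1.65 FPKM in NG-KO without overlap (log2 difference 0.39 ± 0.13, adjusted p = 0.224). Unc13a was at 23.5 to 33.2 FPKM in AG-KO and 23.1 to 27.5 FPKM in NG-KO (0.24 ± 0.11, adjusted p = 0.331), and with the oligodendrocyte covariate its value turned to -0.08. Neither stood apart from WT in either knockout, where the log2 fold changes lay between -0.20 and 0.19.

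Endocytosis proteins were led by Dnm1, the GTPase that cuts vesicles from the membrane. Dnm1 (ENSMUSG00000026825, chromosome 2, 32308471 to 32353338, minus strand) was at 200.0, 192 and 189 FPKM in WT, 214, 206 and 236 FPKM in Δ3102, 197, 200.4, 200.0 and 211 FPKM in AG-KO, and 222, 221, 221 and 238 FPKM in NG-KO. The Δ3102 and NG-KO mice lay above WT, and NG-KO also above AG-KO. Against WT the log2 fold changes were 0.18 ± 0.07 in Δ3102 (unadjusted p = 0.0187, adjusted p = 1.0), 0.09 ± 0.06 in AG-KO and 0.23 ± 0.06 in NG-KO (adjusted p = 0.284). The Δ3102 value had an unadjusted p of 0.103 without Δ3102 replicate 3 and of 0.0684 without WT replicate 3. AG-KO against NG-KO gave -0.14 ± 0.06 (adjusted p = 0.292). Amphiphysin (Amph), its partner at the vesicle neck, was at 0.10 ± 0.09, 0.06 ± 0.09 and 0.08 ± 0.09 against WT.

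The neurexins, presynaptic adhesion proteins that meet neuroligins across the cleft, were highest in AG-KO. Nrxn2 (ENSMUSG00000033768, chromosome 19, 6418731 to 6533217, plus strand) was at 12.3, 15.1 and 12.5 FPKM in WT, 16.2, 16.0 and 11.2 FPKM in Δ3102, 16.8, 19.0, 20.6 and 21.2 FPKM in AG-KO and 15.7, 16.0, 18.1 and 14.3 FPKM in NG-KO. All 4 AG-KO mice lay above WT, and AG-KO replicate 1 overlapped NG-KO. Nrxn2 was 1.49-fold WT in AG-KO (log2 fold change 0.57 ± 0.15, adjusted p = 0.159, unadjusted p = 0.00184), and with the oligodendrocyte covariate the log2 value was 0.55. Against NG-KO it was 0.29 ± 0.14 (adjusted p = 0.347).

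Nrxn3 (ENSMUSG00000066392, chromosome 12, 88722876 to 90333060, plus strand) was at 3.31, 7.09 and 3.80 FPKM in WT, 3.91, 3.15 and 5.12 FPKM in Δ3102, 4.86, 5.06, 7.93 and 8.04 FPKM in AG-KO and 3.35, 3.26, 3.76 and 2.69 FPKM in NG-KO. AG-KO lay above NG-KO in every pair of mice, 2.02-fold (log2 1.01 ± 0.26, adjusted p = 0.139), and the value was 0.44 with the oligodendrocyte covariate (unadjusted p = 0.18). The mouse with the highest sum of oligodendrocyte markers had the highest Nrxn3 of its group in WT (replicate 2, 313 FPKM) and in NG-KO (replicate 3, 153 FPKM). In AG-KO that mouse had the lowest Nrxn3 (replicate 1, 273 FPKM). In Δ3102 the mouse with the lowest sum had the highest Nrxn3 (replicate 3, 137 FPKM). The covariate sum was 148 to 273 FPKM in AG-KO and 105 to 153 FPKM in NG-KO, so it and the genotype cannot be told apart fully. The part of oligodendrocytes in the Nrxn3 values was not tested. Against WT, Nrxn3 was at 0.49 ± 0.28 in AG-KO and -0.52 ± 0.28 in NG-KO, with overlap in both. Synaptic splice variants of neurexins were not resolved by gene counts.

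The glutamate transporters VGLUT1 and VGLUT2 differed in level and in spread. Slc17a7 was at 131, 206 and 194 FPKM in WT, 204, 224 and 218 FPKM in Δ3102, 208, 220.5, 238 and 142 FPKM in AG-KO and 228, 214, 228 and 230.4 FPKM in NG-KO. WT replicate 1 and AG-KO replicate 4 stood far below the other 12 libraries. The log2 fold change in NG-KO against WT was 0.36 ± 0.16 (unadjusted p = 0.0454, adjusted p = 0.534). The FPKM of Slc17a6 was 1.48 to 3.34 in WT, 1.25 to 3.92 in Δ3102, 1.76 to 3.26 in AG-KO and 0.926 to 2.18 in NG-KO, and its log2 fold changes against WT of 0.23, 0.08 and -0.47 had SEs of 0.40 to 0.43.

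Synapsin 2 and synaptojanin 1 were found at separate levels within genotypes rather than between them. Syn2 (ENSMUSG00000009394, chromosome 6, 115134902 to 115276559, plus strand) was at 48.5 to 73.6 FPKM in 5 libraries, which were WT replicate 2, Δ3102 replicate 2, AG-KO replicate 1 and NG-KO replicates 2 and 3, and at 105.5 to 132 FPKM in the other 9. Synj1 (ENSMUSG00000022973, chromosome 16, 90936092 to 91011308, minus strand), the lipid phosphatase that uncoats vesicles, was at 18.6 to 27.7 FPKM in WT replicate 3, AG-KO replicate 3 and NG-KO replicate 4, and at 44.4 to 52.5 FPKM in the other 11. The high level was 1.87-fold the low level for Syn2 and 1.98-fold for Synj1. No library was low in both genes.

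Separate levels were defined, after these values were seen, as a gap of at least 0.4 on the log2 CPM scale that split 2 or more libraries from the rest in genes with a mean of 10 FPKM or more. By that definition 2 of 26 members (7.69%) had them, against 11.1% of 4603 tested genes. Slc17a7, with a gap of 0.37, missed the limit. Without Syn2 and Synj1 the median log2 fold changes of the other members against WT were 0.12, 0.14 and 0.11. The paralog Syn1 did not follow Syn2, and the Syn1 to Syn2 ratio ran from 1.39 to 2.78 within WT. The cause of the separate levels was not tested.

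**Figure D5:**
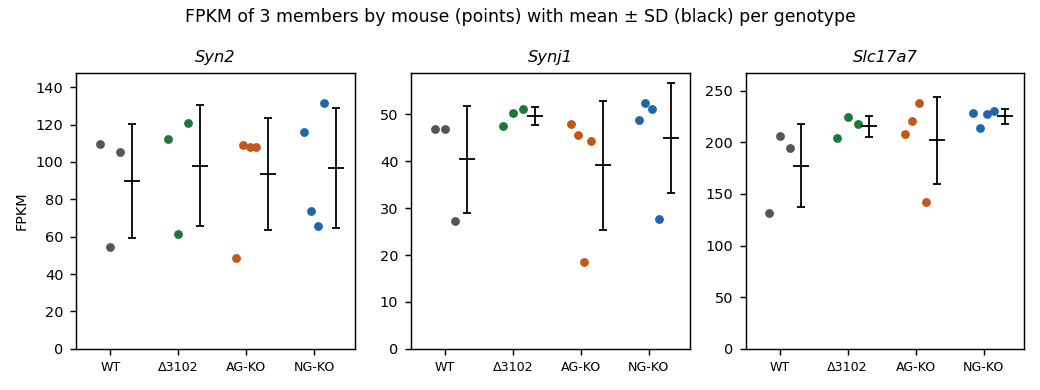
FPKM (linear axes from 0) of Syn2, Synj1 and Slc17a7 by mouse, with mean ± SD in black for each genotype. Low mice of Syn2 occur in all 4 genotypes, those of Synj1 in WT, AG-KO and NG-KO, and those of Slc17a7 in WT and AG-KO.

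Slc17a6, Syt2, Vamp1 and Sv2c are more abundant in regions outside the hippocampus. Their values were set beside thalamus and habenula markers, which do not cover the striatum and midbrain from which Sv2c is better known. Of 11 such markers 5 were below 1 FPKM in every library, with Tcf7l2 at 0.233 to 0.555 FPKM and Shox2 at most 0.142 FPKM. The sum of the 11 was 53.2 to 66.6 FPKM in WT, 35.3 to 73.9 FPKM in Δ3102, 44.8 to 89.8 FPKM in AG-KO and 41.1 to 79.99 FPKM in NG-KO, most of it Calb2, which hippocampal interneurons and mossy cells also express. In AG-KO against NG-KO, 2 of the 8 tested markers were higher at an unadjusted p under 0.05 and 0 lower. They were Zic1 and Lef1, with log2 differences of 1.28 and 0.52. Zic1 was at 2.12 to 8.05 FPKM in AG-KO and 1.50 to 2.08 FPKM in NG-KO. Lef1 was at most 0.473 FPKM in NG-KO and passed the filter only through WT and AG-KO libraries, so its value is a description only. Negative log2 differences were seen for 2 of the 8, Ntng1 and Tac2. Across the 14 libraries the members did not follow the markers upward. Vamp1 had Pearson r = -0.68 (permutation p = 0.0076, adjusted over 4 relations 0.0304) and Spearman rho = -0.62 (permutation p = 0.02, adjusted 0.0674). Syt2 had r = -0.58 (permutation p = 0.0271, adjusted 0.0541) and rho = -0.58 (permutation p = 0.0337, adjusted 0.0674). Slc17a6 had r = -0.34 and rho = -0.36, and Sv2c r = -0.04 and rho = -0.04, with adjusted permutation p of 0.279 to 0.892.

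Without the 2 libraries farthest from the median of the marker sum, r was -0.60 for Vamp1 and -0.56 for Syt2, each with an adjusted permutation p of 0.118 over 12 libraries. Without Calb2 in the sum, r was -0.54 for Vamp1 (adjusted permutation p = 0.186) and -0.30 for Syt2 (adjusted permutation p = 0.569). With deviations from genotype means, permuted within genotypes, r was -0.66 for Vamp1 (adjusted permutation p = 0.105) and -0.76 for Syt2 (adjusted permutation p = 0.0364), and rho was -0.72 and -0.75 (adjusted permutation p = 0.0519 for each). Vamp1 was at 13.2 to 14.6 FPKM in WT, 13.3 to 16.7 FPKM in Δ3102, 12.8 to 15.1 FPKM in AG-KO and 11.8 to 14.6 FPKM in NG-KO, with log2 fold changes of 0.16, 0.03 and -0.02 against WT. Syt2 ran from 1.49 FPKM in Δ3102 replicate 3 to 6.32 FPKM in Δ3102 replicate 1, and its SEs of 0.42 to 0.45 exceeded each of its log2 fold changes against WT.

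Of 99 further genes, which cover other SNARE regulators, active zone, clathrin, calcium channel and adhesion proteins, 97 were listed and 94 tested. They are called other presynaptic genes here, but the list also holds postsynaptic adhesion proteins, namely Nlgn1, Nlgn2, Nlgn3, Lrrtm1, Lrrtm2 and Lrrtm3. None of the 94 passed an adjusted p of 0.05 in edgeR in any of the 4 comparisons. At an unadjusted p under 0.05, 2 were higher and 0 lower in Δ3102, 9 and 6 in AG-KO, 11 and 5 in NG-KO, and 10 and 9 in AG-KO against NG-KO. The postsynaptic Nlgn1 was among the 9 in AG-KO, and Nlgn1 and Nlgn2 were among the 11 in NG-KO. The shares of all tested genes were 2.18% higher and 2.27% lower, 6.65% and 7.74%, 4.33% and 4.83%, and 7.3% and 6.84%. Both directions together, the 2 genes in Δ3102 became 0 without Δ3102 replicate 1 or 2, 1 without NG-KO replicate 3, and 4, 5 and 6 without WT replicate 2, Δ3102 replicate 3 and WT replicate 3. The 15 in AG-KO became 8 without WT replicate 2. The 16 in NG-KO became 7 without NG-KO replicate 2, 10 without WT replicate 2 and 25 without NG-KO replicate 1. The 19 in AG-KO against NG-KO became 11 without AG-KO replicate 3 and 12 without NG-KO replicate 2. Their median log2 fold changes were 0.006, 0.06, 0.04 and 0.01.

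Cadps, a factor of vesicle priming, had the smallest p in Δ3102, 0.28 ± 0.12 on the log2 scale (unadjusted p = 0.0337), and was at 12.8 to 14.8 FPKM in WT and 15.0 to 17.7 FPKM in Δ3102. Brsk1, a kinase of presynaptic terminals, led in AG-KO (0.27 ± 0.07, adjusted p = 0.168) with 58.1 to 66.1 FPKM in WT and 70.9 to 81.0 FPKM in AG-KO. Erc1, an active zone scaffold of the ELKS family, led in NG-KO (0.57 ± 0.14, adjusted p = 0.263), where it was at 3.40 to 3.90 FPKM against 2.14 to 2.86 FPKM in WT. Rabphilin (Rph3a), a partner of Rab3a, led in AG-KO against NG-KO (0.53 ± 0.12, adjusted p = 0.117). DESeq2 gave adjusted p values of 0.0359, 0.0318 and 0.00746 for Brsk1, Erc1 and Rph3a in those 3 comparisons, and 0.0178 for synaptojanin 2 (Synj2) in the last, where 0.54 ± 0.14 was the edgeR log2 difference.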

How the data were processed

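Hippocampal poly(A) RNA of 4 AG-KO, 4 NG-KO, 3 Δ3102 and 3 WT mice was sequenced as paired-end reads. Per the submitters' processing notes and the study's methods, the authors trimmed reads with cutadapt 1.9, mapped them to GRCm38 with HISAT2 2.0.4 and estimated transcripts with StringTie 1.3.4d, and UMI-tools is also named. The read counts per gene were deposited by the authors without normalization. The FPKM values were deposited by the authors scaled to exon length and mapped reads. The counting program, its strand setting and the gene annotation are not given in the sources used here, so reads of overlapping genes could be shared. Gene coordinates are those of the deposited table, and 29 of 34 members have the same ones in GENCODE release vM21.

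Samples were grouped by the genotype in the labels. Counts of 18059 genes with at least 0.5 FPKM in at least 3 libraries were normalized by TMM and tested with the quasi-likelihood test of edgeR 4.0.16 (R 4.3.3), with 1 mean per genotype over all 14 libraries, no covariate and Benjamini-Hochberg adjustment over all tested genes. The SE of a log2 fold change is its size divided by the root of F. FPKM of single genes were also compared by exact two-sided permutation tests (SciPy 1.17.1). The edgeR code was tested on simulated data. Alternatives were DESeq2 1.42.0, limma 3.58.1 on log2(FPKM + 0.1) and log2(FPKM + 1), DESeq2 size factors, no filter (33050 genes), a minimum of 1 FPKM (15237 genes), the replicate number as a block, only the 2 groups compared, each library left out, and, chosen after the data were examined, an oligodendrocyte covariate, the median without Syn2 and Synj1, and thalamus markers without Calb2.

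A few genes of the marker and presynaptic lists are not reported here and entered no list, sum or covariate. The members, gene lists and tests were chosen with earlier results of these data known. Statistics are given for members at an adjusted p under 0.05, then for up to 10 at an unadjusted p under 0.05 by p, or the 5 smallest where fewer than 5 met this, and for Slc17a6, Syt2, Vamp1 and Sv2c throughout. Members named beyond this rule were chosen after their values were seen. Same-numbered replicates did not deviate together (correlations of -0.27 to 0.29 over 19 pairs, 6 of them above 0.1), so the samples were not treated as paired. Promoters are from RefSeq.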

Additional observations from a re-analysis of the deposited data

Results flagged for a closer look

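In each of the 68 sets of 4 AG-KO or 4 NG-KO values of a member, the highest or lowest mouse was set against the gap to its nearest neighbour (Dixon's 95% limit), and 8 stood apart, where chance gives about 1 in 20. In AG-KO, Syn2 was at 48.5 FPKM in replicate 1 beside 107.9 to 109 FPKM, and Synj1 was at 18.6 FPKM in replicate 3 beside 44.4 to 48.0 FPKM. Syt7 was at 32.7 FPKM in AG-KO replicate 2 beside 14.8 to 17.4 FPKM, and Syn3 was at 0.296 FPKM in the same mouse beside 0.526 to 0.561 FPKM. In NG-KO, Synj1 was at 27.7 FPKM in replicate 4 beside 48.7 to 52.5 FPKM, and Dnm1 was at 238 FPKM in replicate 4 beside 221 to 222 FPKM. Snap25 was at 273 FPKM in NG-KO replicate 1 beside 241 to 247 FPKM, and Slc17a7 was at 214 FPKM in NG-KO replicate 2 beside 228 to 230.4 FPKM. The last 3 gaps are small against the levels. The groups of 3 mice were not examined in this way.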

How the results depend on the processing

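The 0 members at an adjusted p under 0.05 in each comparison became 0 in Δ3102, 3 in AG-KO, 3 in NG-KO and 3 in AG-KO against NG-KO with DESeq2, and 0 to 1 in the last when single libraries were left out, where Sv2c passed without AG-KO replicate 1 or 2. Counts of members at an unadjusted p under 0.05 ranged over libraries left out from 2 to 3, 4 to 9, 11 to 15 and 5 to 13 in the 4 comparisons, and those of the other presynaptic genes from 0 to 6, 8 to 19, 7 to 25 and 11 to 23. The members' count was 5 in Δ3102 with only the 2 groups compared. It was 7 in NG-KO and 2 in AG-KO against NG-KO with the oligodendrocyte covariate, and 7 in the latter with limma at either pseudocount and with only the 2 groups compared. Medians of the members against WT stayed between 0.08 and 0.19 under every alternative run, and that of AG-KO against NG-KO lay between -0.03 and 0.04.

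With the replicate block, which the data did not show to pair the samples, the members' counts were 2, 5, 12 and 7, and 9 other presynaptic genes had an unadjusted p under 0.05 in AG-KO. The block turned the AG-KO log2 fold changes of Slc17a6 to -0.08, Syt2 to -0.008 and Vamp1 to -0.009, and limma turned that of Vamp1 to -0.006 and -0.005 with pseudocounts of 0.1 and 1. The covariate turned Vamp1 to 0.028 in NG-KO and to -0.011 in AG-KO against NG-KO, where Unc13a turned to -0.076. Among members with statistics, leaving out single libraries changed the direction of Slc17a6, Syt2 and Vamp1 values alone. Their log2 fold changes then ranged from -0.11 to 0.58 (Slc17a6) and -0.40 to 0.38 (Syt2) in Δ3102, and from -0.17 to 0.40 (Slc17a6), -0.068 to 0.32 (Syt2) and -0.02 to 0.084 (Vamp1) in AG-KO. Those of Vamp1 ranged from -0.071 to 0.037 in NG-KO and from -0.01 to 0.10 in AG-KO against NG-KO.

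The thalamus relation of Vamp1 was r = -0.54 without Calb2, -0.66 with deviations from genotype means and -0.60 without the 2 farthest libraries, none past an adjusted permutation p of 0.05 for r. That of Syt2 was -0.76 with deviations and passed it for r but not for rho (adjusted permutation p = 0.0519), and was -0.30 without Calb2 (adjusted permutation p = 0.569). That of Sv2c was 0.13 without Calb2. The causes of these shifts were not tested. Counting error at these depths and the spread between libraries were not separated.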
